A study of Mus musculus with 12 samples.

Results

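The genes described here are 3 ligands of the epidermal growth factor (EGF) family, Hbegf, Ereg and Areg, and 6 receptor tyrosine kinases for growth factors, Egfr, Pdgfra, Pdgfrb, Fgfr1, Fgfr2 and Met, listed by name as members of these families. The platform annotation used here named 17 probe sets for 8 of these 9 genes, out of 12393 genes with a named probe set on the array, and all 8 passed the filter on dim genes that left 10674 genes for testing. Areg had no named probe set and was not analysed here. RNA came from mouse embryonic fibroblasts (MEFs), primary connective tissue cells grown from embryos, that were treated with a chemical combination labelled 6TCF or a chemical combination labelled SGCF. Each arm was sampled on 3 days, numbered 0, 5 and 10, with 2 arrays a group, 6 groups and 12 arrays in all.

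The arms shared a culture medium with 15% serum and basic fibroblast growth factor (bFGF, a ligand of FGF receptors) at 40 ng/ml, so all groups to which that medium was given had an FGF receptor ligand present. The labels do not say whether day 0 cells were collected before or after the change to this medium. The sources used here do not give the make-up of 6TCF and SGCF, and the series holds no untreated culture at day 5 or day 10, so time in culture and treatment cannot be told apart within an arm. Whether the 2 arrays of a group stand for separate embryos or cultures is not stated in the labels, so the p-values measure the spread between these arrays, which may be technical.

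Receptor tyrosine kinases sit in the cell membrane, pair up when a ligand binds outside the cell, and phosphorylate themselves and adaptor proteins that feed the RAS, RAF and ERK kinase cascade and other pathways. EGF family ligands are made as membrane proteins and are cut free by metalloproteases before they bind EGFR, alone or with its relatives ERBB2, ERBB3 and ERBB4, on the same or on neighbouring cells. In fibroblasts, PDGF and FGF receptors are known for driving division and migration, MET answers hepatocyte growth factor (HGF), and PDGFRA and PDGFRB are also widely used to mark mesenchymal cells.

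Promoter sequences were available for 5 of the 9 listed genes, as windows of 300 bases that run from 250 before to 50 after the gene's start (RefSeq, mouse build GRCm38.p6). Those of Pdgfra and Fgfr2 are shown because these receptor genes rose together in 1 arm at day 5, and that of Egfr because it did not move with them. Each is written on the strand of its gene. Capitals mark the SP1 GC box in the Egfr window, which reads GGGCGG on the opposite strand.
Pdgfra (chr5:75152001-75152300, plus strand): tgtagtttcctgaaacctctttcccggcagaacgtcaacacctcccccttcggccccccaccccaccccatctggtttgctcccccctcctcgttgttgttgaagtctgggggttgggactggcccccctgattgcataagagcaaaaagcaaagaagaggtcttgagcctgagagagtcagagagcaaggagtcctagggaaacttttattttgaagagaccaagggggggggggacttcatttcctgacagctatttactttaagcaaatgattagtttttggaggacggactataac
Fgfr2 (chr7:130266759-130267058, minus strand): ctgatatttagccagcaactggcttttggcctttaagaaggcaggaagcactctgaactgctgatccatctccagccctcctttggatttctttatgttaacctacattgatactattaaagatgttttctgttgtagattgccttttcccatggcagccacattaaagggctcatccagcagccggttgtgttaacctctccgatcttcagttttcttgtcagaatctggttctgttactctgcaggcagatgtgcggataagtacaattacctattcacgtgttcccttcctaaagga
Egfr (chr11:16751953-16752252, plus strand): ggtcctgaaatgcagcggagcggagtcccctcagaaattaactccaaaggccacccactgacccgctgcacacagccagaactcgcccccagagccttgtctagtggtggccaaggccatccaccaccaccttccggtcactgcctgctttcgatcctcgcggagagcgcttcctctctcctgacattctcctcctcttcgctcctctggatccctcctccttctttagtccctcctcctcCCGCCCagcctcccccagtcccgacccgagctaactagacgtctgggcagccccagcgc

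The windows differed in base composition, with a GC content of 51% for Pdgfra, 43.7% for Fgfr2 and 62.3% for Egfr. The search covered 6 motifs on both strands: the cAMP response element TGACGTCA, the AP-1 site TGANTCA, the TCF/LEF site CTTTGAT, the TEAD site GGAATG, the SP1 GC box GGGCGG and the TATA box TATAAA. Across 32851 promoter windows of the same length, these were found in 1.79%, 7.81%, 3.73%, 14.7%, 35.7% and 13.6%, respectively. The Egfr window held 1 GC box, starting 9 bases before the gene's start, and none of the other 5 motifs. The Pdgfra and Fgfr2 windows held none of the 6, which says only that these letters are not in these windows. The window of Met, a receptor gene that is dim on these arrays, held 3 GC boxes and 1 AP-1 site.

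Levels are given as log2(intensity + 16) after quantile normalization, and a change is a difference of such levels between group means, with its standard error (SE). A change was called when its adjusted p was under 0.05 (limma, Benjamini-Hochberg adjustment over all 10674 genes). Of all genes, 15.1% rose and 12.5% fell at day 5 of 6TCF, and 23.2% rose and 20% fell at day 10. In SGCF these shares were 12.8% and 12.6% at day 5 and 20.4% and 18.2% at day 10. Counts called in every gene list below are to be read against these shares. The members and lists were chosen with earlier results of these data known, so such counts are descriptive. The pseudocount of 16 makes the change of a dim gene smaller than it would be without it. A probe set's level depends on its own probes, so levels are compared between samples and not between genes. The deposited medians lay between 102.4 and 142 in the 6TCF arrays and between 60.9 and 86.2 in the SGCF arrays, without overlap, so that array processing and arm cannot be told apart in any comparison of the arms. Replicates correlated at 0.985 or more. The difference between the 3' and the 5' probe sets of actin, a sign of RNA integrity, went from 0.34 ± 0.06 at day 0 through 0.80 ± 0.08 to 1.01 ± 0.005 in 6TCF and from 0.33 ± 0.07 through 0.44 ± 0.04 to 0.46 ± 0.01 in SGCF (SD, n = 2). All 14 fibroblast markers on the list passed the filter, with Col1a2 between 13.29 and 14.06 and Vim between 13.31 and 13.97 over the 6 groups. Others on the list moved more. Between day 0 and day 10 of 6TCF, Lum went from 7.38 to 12.60 and Fbln2 from 12.63 to 9.55. Of the 14, 6 rose and 7 fell at day 10 of 6TCF, and 6 rose and 4 fell at day 10 of SGCF. Markers of macrophages were also present at day 0, with the complement gene C1qa at 7.53 in 6TCF and 9.41 in SGCF.

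Of the ligands, Hbegf fell in both arms and Ereg rose in both. The fall of Hbegf was 12.7-fold by day 10 of 6TCF and 3.78-fold by day 10 of SGCF. The rise of Ereg reached 5.26-fold at day 5 of SGCF, against 1.62-fold at day 5 of 6TCF. For both genes the arms differed in the size of the change at day 5 and at day 10.

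Hbegf encodes heparin-binding EGF-like growth factor, which binds EGFR and ERBB4 and is also the receptor for diphtheria toxin in some species. In 6TCF its level was 10.42 and 10.59 at day 0, 8.39 and 7.41 at day 5, and 6.83 and 6.85 at day 10. In SGCF it was 9.54 and 9.19, then 8.82 and 8.85, then 7.51 and 7.38. The arrays of the 3 days did not overlap in either arm, and the 2 arrays at day 5 of 6TCF stood further apart than those of any other Hbegf group. The change in 6TCF was -2.61 ± 0.24 at day 5 (SE, adjusted p = 9.12e-06) and -3.67 ± 0.24 at day 10 (adjusted p = 3.53e-07). In SGCF it was -0.53 ± 0.24 at day 5, which was not called (adjusted p = 0.136), and -1.92 ± 0.24 at day 10 (adjusted p = 7.48e-05). Without normalization between arrays the day 5 change in SGCF was -0.90 and was called (adjusted p = 0.00134). Between day 5 and day 10 Hbegf fell further in both arms, with changes of -1.06 in 6TCF (adjusted p = 0.0149) and -1.39 in SGCF (adjusted p = 0.00168).

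The arms already differed in Hbegf at day 0, when SGCF was lower than 6TCF with a difference of -1.14 (adjusted p = 0.0105). At day 5 SGCF was higher by 0.94 (adjusted p = 0.0175), a difference that was 0.05 without normalization between arrays (adjusted p = 0.838), and at day 10 the difference of 0.61 was not called (adjusted p = 0.0837). The change from day 0 was less negative in SGCF by 2.08 ± 0.34 at day 5 (adjusted p = 0.00261) and by 1.75 ± 0.34 at day 10 (adjusted p = 0.00439). Part of each difference lies in the day 0 arrays, which enter both. Without 6TCF day 0 replicate 2 or SGCF day 0 replicate 2 the day 0 difference was -1.05 or -0.96 and was not called (adjusted p = 0.0876 and 0.0755). The later fall in 6TCF was -0.58 without 6TCF day 5 replicate 1 (adjusted p = 0.0912), and was lost without either 6TCF day 10 array (adjusted p = 0.0969 and 0.0658). The difference at day 5 was 0.45 without 6TCF day 5 replicate 2 (adjusted p = 0.103), and was lost without either SGCF day 5 array (adjusted p = 0.0774 and 0.0705). With either 6TCF day 5 array left out, 2 further changes were called: the fall at day 5 of SGCF (-0.53, adjusted p = 0.0174 and 0.0171) and the difference at day 10 (0.61 and 0.60, adjusted p = 0.00941 and 0.00965).

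Ereg encodes epiregulin, a ligand of EGFR and ERBB4 with low affinity and long-lasting signalling. In 6TCF its level was 8.68 and 8.96 at day 0, 9.63 and 9.40 at day 5, and 9.19 and 9.51 at day 10. The SGCF arrays read 7.93 and 8.07, then 10.42 and 10.37, then 9.81 and 9.58. Every treated array stood above both day 0 arrays of its arm, and the highest arrays were those of day 5 in SGCF. Ereg rose by 0.70 ± 0.15 at day 5 (adjusted p = 0.00556) and 0.53 ± 0.15 at day 10 (adjusted p = 0.016) of 6TCF. It rose by 2.39 ± 0.15 at day 5 (adjusted p = 4.43e-07) and 1.69 ± 0.15 at day 10 (adjusted p = 5.65e-06) of SGCF. It then fell between day 5 and day 10 of SGCF by 0.70 (adjusted p = 0.00706), while the difference of -0.17 in 6TCF was not called (adjusted p = 0.492).

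The rise of Ereg was larger in SGCF by 1.70 ± 0.22 at day 5 (adjusted p = 5.68e-04) and by 1.16 ± 0.22 at day 10 (adjusted p = 0.00353). At day 0 Ereg was lower in SGCF than in 6TCF, by -0.82 (adjusted p = 0.00598), at day 5 higher by 0.88 (adjusted p = 0.00198), and at day 10 the difference was 0.34 (adjusted p = 0.122). Without normalization between arrays the day 5 difference was 0.01 (adjusted p = 0.958), and the 6TCF rises were 0.41 at day 5 (adjusted p = 0.155) and 0.46 at day 10 (adjusted p = 0.0962), none of them called. The 6TCF rises lost their calls when single arrays were left out. At day 5 the change was 0.55 without 6TCF day 0 replicate 1 (adjusted p = 0.0706) and 0.58 without 6TCF day 5 replicate 1 (adjusted p = 0.0536). At day 10 it was 0.39 without 6TCF day 0 replicate 1 (adjusted p = 0.147) and 0.37 without 6TCF day 10 replicate 2 (adjusted p = 0.148). The difference at day 0 was -0.68 without 6TCF day 0 replicate 2 (adjusted p = 0.0757), and the later fall in SGCF was -0.58 without SGCF day 10 replicate 2 (adjusted p = 0.0728).

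**Figure D1:**
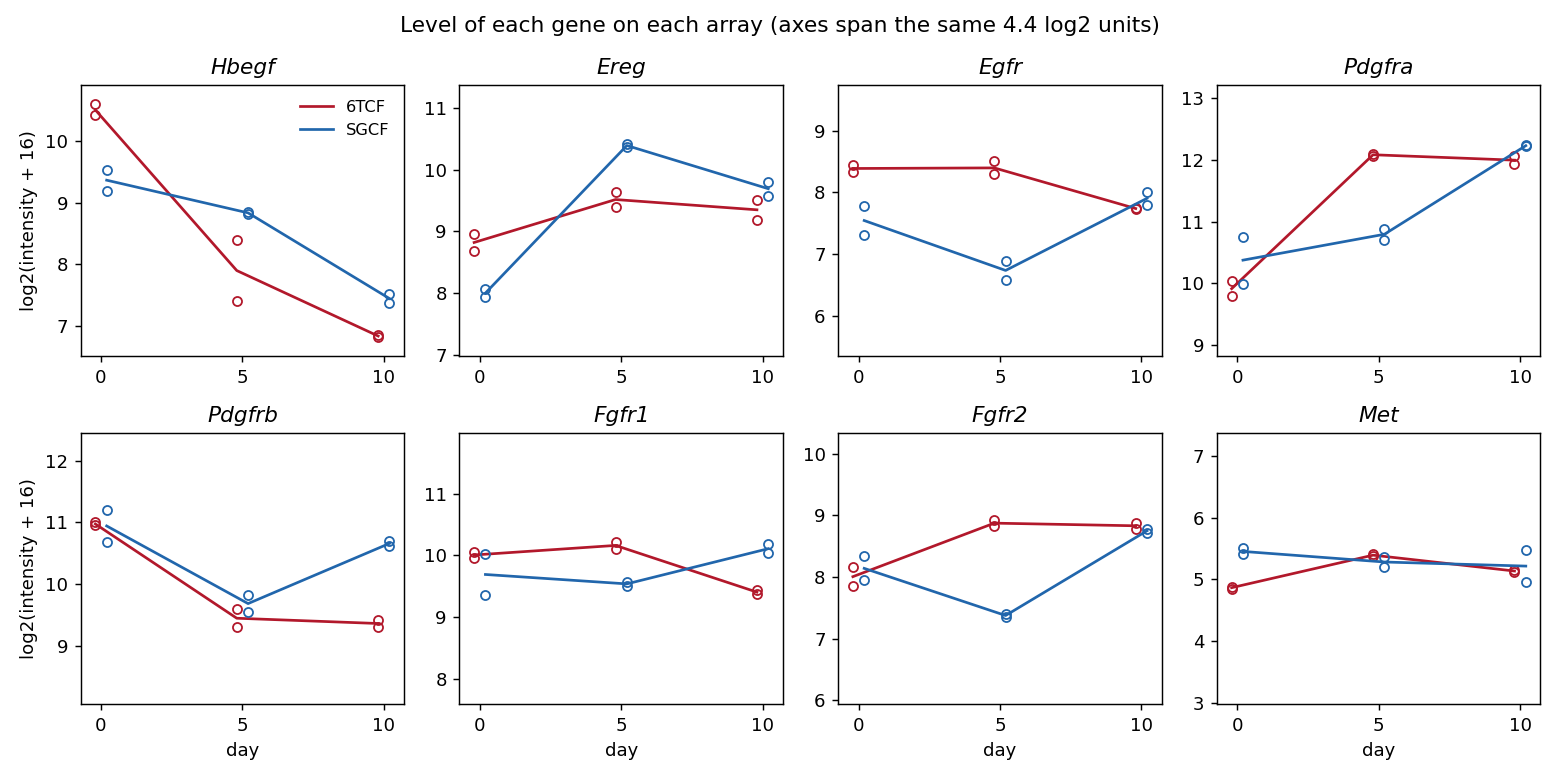
Level of each of the 8 measured genes, as log2(intensity + 16), against day, in 1 panel a gene. Open circles are single arrays, lines join the group means, red is 6TCF and blue is SGCF, and every axis spans the same number of log2 units. Hbegf goes down in both arms, and Ereg goes up in both with its peak at day 5 of SGCF. On these quantile normalized levels Pdgfra reaches a similar height in both arms, but only at day 10 in SGCF.

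Macrophage markers moved in the same samples as these ligands, and macrophages are known to make EGF family ligands. Of 17 tested macrophage markers, 14 fell and 1 rose at day 5 of 6TCF, 12 fell and 2 rose at day 10 of 6TCF, 15 fell and 1 rose at day 5 of SGCF, and 16 fell and 1 rose at day 10 of SGCF. The leukocyte gene Ptprc and the markers Fcgr1 and Aif1 passed the filter through their day 0 groups alone, so their falls were partly built into their passing. The summed intensity of the 17 went from 3845.0 to 4038.1 at day 0 to 1267.4 to 1404.1 at day 5 and 2199.6 to 2360.0 at day 10 in 6TCF. In SGCF it went from 8431.8 to 9385.5 at day 0 to 961.7 to 1176.0 and then 878.2 to 967.9. At day 0, 16 of the 17 were higher in SGCF than in 6TCF (8.46% of all genes), whereas Hbegf and Ereg were lower in SGCF. By day 10 of SGCF Ptprc stood at 4.73 and C1qa at 4.90, below the filter at 5.27. Other markers on the list stayed above the filter then. Among them were Cd14 at 8.11, up from 7.28 at day 0 of SGCF, Lyz2 at 7.34 and Cd68 at 6.47. In bulk RNA, fewer cells of a type and less RNA per cell cannot be told apart, and the part of macrophages in the ligand changes was not tested.

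Among the other ligands of the family, 6 had a named probe set and 2 of these passed the filter. Btc, which encodes the EGFR and ERBB4 ligand betacellulin, moved in the direction of Ereg. Its level was 5.37 and 5.65 at day 0, 6.31 and 5.86 at day 5 and 5.95 and 5.98 at day 10 of 6TCF. The corresponding SGCF levels were 5.57 and 5.57, then 6.90 and 6.66, then 5.83 and 5.70. Btc rose by 0.58 and 0.46 at day 5 and day 10 of 6TCF and by 1.20 at day 5 of SGCF, while its change of 0.19 at day 10 of SGCF was not called. Tgfa, which encodes transforming growth factor alpha, had group means between 5.77 and 6.16 and no called change from day 0. Egf, Epgn, Nrg3 and Nrg4 were below the filter, and Nrg1 and Nrg2 had no named probe set. Of the 4 tested ligands, 2 rose and 1 fell at day 5 of 6TCF (median change 0.29, against -0.00 over all genes tested), and 2 rose and none fell at day 5 of SGCF (median 0.66, against 0.02). At day 10 the counts were 2 higher and 1 lower in 6TCF (median 0.17) and 1 higher and 1 lower in SGCF (median -0.01).

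Egfr, the receptor for these ligands, did not follow either of them. Its brightest probe set dipped at day 5 of SGCF and rose again by day 10, and in 6TCF it was lower at day 10 alone. The level in 6TCF was 8.44 and 8.34 at day 0, 8.29 and 8.50 at day 5, and 7.73 and 7.75 at day 10. In the SGCF arm the level was 7.78 and 7.31, then 6.58 and 6.89, then 7.80 and 8.01. The day 10 arrays of 6TCF and the day 5 arrays of SGCF were the lowest of their arms and overlapped with no other group of the arm.

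The change of Egfr in 6TCF was 0.01 ± 0.17 at day 5 (adjusted p = 0.978) and -0.65 ± 0.17 at day 10 (adjusted p = 0.00835). In SGCF it was -0.81 ± 0.17 at day 5 (adjusted p = 0.00398) and 0.36 ± 0.17 at day 10 (adjusted p = 0.113). Between day 5 and day 10 it was -0.66 in 6TCF (adjusted p = 0.0235) and 1.17 in SGCF (adjusted p = 4.38e-04). The change from day 0 to day 10 was higher in SGCF by 1.01 ± 0.24 (adjusted p = 0.0109), and the difference at day 5, -0.82 ± 0.24, was not called (adjusted p = 0.0549). Between the arms, SGCF was lower by -0.84 at day 0 (adjusted p = 0.00752) and by -1.66 at day 5 (adjusted p = 3.3e-05), and the difference at day 10 was 0.17 (adjusted p = 0.494).

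These Egfr values come from 1 of 5 probe sets, 1424932_at, and the others shared a call with it only at day 10 of 6TCF, where 1451530_at fell too, with a change of -0.57. The other 4 had group means between 5.50 and 7.56. Between the arms, 1454313_at went the other way at day 5, where it was higher in SGCF by 0.46, and it was also higher by 0.52 at day 10, both called. None of the other 4 had a called change between day 5 and day 10 of SGCF, where their values were -0.32, -0.16, 0.06 and 0.32. With the mean of all 5 probe sets no Egfr change was called, and the values were -0.22 at day 10 of 6TCF (adjusted p = 0.085) and 0.21 between day 5 and day 10 of SGCF (adjusted p = 0.142). Single arrays also bore on the calls. The 6TCF change at day 10 was -0.60 without 6TCF day 0 replicate 1 (adjusted p = 0.0567), and the difference between the arms at day 0 was -0.79 and -0.89 without 6TCF day 0 replicate 1 and 2 (adjusted p = 0.0639 and 0.0502). The later fall in 6TCF lost its call without any 1 of the 4 arrays it compares (values -0.55 to -0.77). Without SGCF day 0 replicate 1 the SGCF change at day 10 was 0.59 (adjusted p = 0.0162), and without SGCF day 0 replicate 2 the arms' difference in the day 5 change was -1.05 (adjusted p = 0.0116), and both were called.

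Of the relatives of EGFR, Erbb2, which encodes the co-receptor with no ligand of its own, fell in 6TCF. Its level was 7.15 and 7.30 at day 0, 6.66 and 6.41 at day 5 and 6.34 and 6.17 at day 10 of 6TCF, and 7.24 and 7.09, 6.90 and 7.15, and 7.23 and 7.22 over the same days of SGCF. The change was -0.69 at day 5 and -0.98 ± 0.14 at day 10 of 6TCF, both called, and -0.14 and 0.06 in SGCF, neither called. Set against each other, the arms differed by 1.03 in the change to day 10, which was called. Erbb3 had group means between 5.24 and 5.97 with no called change from day 0, and Erbb4 was below the filter.

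**Figure D2:**
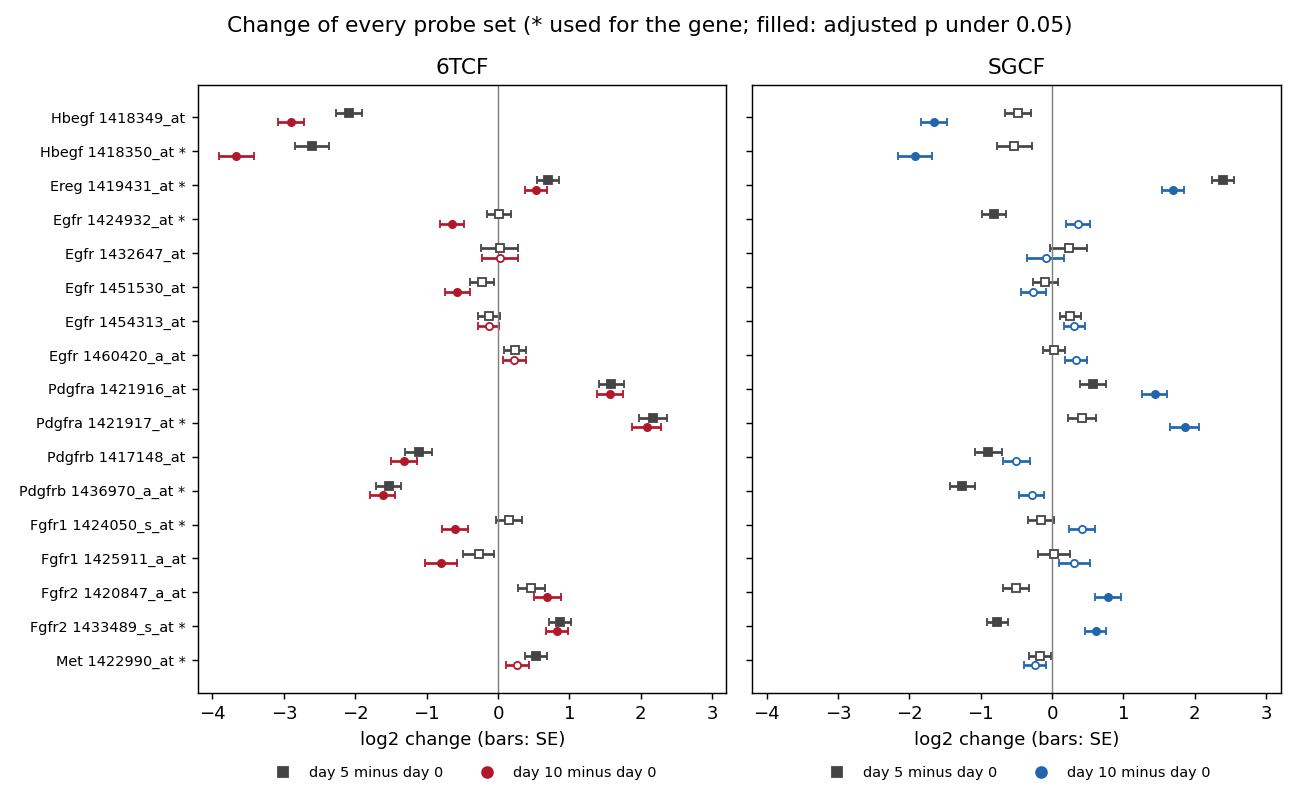
Change from day 0 in log2 units, with its SE, for all 17 probe sets of the 8 genes, in 6TCF (left) and SGCF (right). Grey squares are day 5, coloured circles are day 10, and an asterisk marks the probe set used for the gene. The probe sets of Hbegf, Pdgfra, Pdgfrb and Fgfr2 lie on the same side of 0 as each other at day 10 of 6TCF, while 2 of the 5 Egfr probe sets are called lower there and the other 3 lie between -0.13 and 0.23.

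The 2 PDGF receptor genes moved in opposite directions in 6TCF, whereas both rose between day 5 and day 10 of SGCF. Pdgfra rose 4.51-fold by day 5 of 6TCF, and in SGCF it rose 3.62-fold, by day 10. Pdgfrb fell 2.89-fold by day 5 and 3.06-fold by day 10 of 6TCF, and in SGCF it fell 2.39-fold by day 5 and rose again by day 10.

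Pdgfra encodes the receptor that binds PDGF-AA, PDGF-BB and PDGF-CC and marks fibroblasts and mesenchymal progenitors. Its level in 6TCF was 10.03 and 9.79 at day 0, 12.07 and 12.10 at day 5, and 11.93 and 12.06 at day 10. In SGCF it was 10.75 and 9.99, then 10.71 and 10.88, then 12.22 and 12.24. The day 5 arrays of SGCF overlapped with its day 0 arrays, whereas those of 6TCF were as high as its day 10 arrays. The change in 6TCF was 2.17 ± 0.20 at day 5 (adjusted p = 8.41e-06) and 2.08 ± 0.20 at day 10 (adjusted p = 7.23e-06). The change in SGCF was 0.42 ± 0.20 at day 5, not called (adjusted p = 0.152), and 1.86 ± 0.20 at day 10 (adjusted p = 2.11e-05). The rise between day 5 and day 10 of SGCF was 1.44 (adjusted p = 3.57e-04), and the difference of -0.09 in 6TCF was not called (adjusted p = 0.801).

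The change of Pdgfra at day 5 was lower in SGCF by -1.75 ± 0.28 (adjusted p = 0.00223), and that at day 10 by -0.23 (adjusted p = 0.592), with a 95% interval from -0.85 to 0.39. The arms differed by 0.46 at day 0 (adjusted p = 0.132), by -1.29 at day 5 (adjusted p = 8.12e-04) and by 0.24 at day 10 (adjusted p = 0.411). Without normalization between arrays the day 10 difference was -0.84 and was called (adjusted p = 8.11e-04). The dimmer probe set 1421916_at rose by 1.59 and 1.57 in 6TCF and by 0.58 and 1.44 in SGCF at day 5 and day 10, and its rise at day 5 of SGCF was called. The SGCF day 0 arrays stood apart by more than those of any other Pdgfra group. Without SGCF day 0 replicate 1 the change at day 5 of SGCF was 0.80 and called (adjusted p = 0.0027). Without SGCF day 0 replicate 2, the difference in the day 10 change was -0.60 (adjusted p = 0.0477) and that between the arms at day 0 was 0.84 (adjusted p = 0.00925), both called.

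Pdgfrb encodes the receptor for PDGF-BB and PDGF-DD and is a marker of pericytes and smooth muscle as well as fibroblasts. Its level in 6TCF was 10.95 and 11.00 at day 0, 9.29 and 9.59 at day 5, and 9.30 and 9.41 at day 10. The SGCF arrays read 11.20 and 10.68, then 9.55 and 9.81, then 10.62 and 10.70. The day 10 arrays of SGCF overlapped with those of day 0, and all other treated arrays lay below the day 0 arrays of their arm. The change in 6TCF was -1.53 ± 0.17 at day 5 (adjusted p = 4.33e-05) and -1.61 ± 0.17 at day 10 (adjusted p = 1.88e-05). The change in SGCF was -1.26 ± 0.17 at day 5 (adjusted p = 2.2e-04) and -0.28 ± 0.17 at day 10 (adjusted p = 0.227). Pdgfrb rose by 0.98 between day 5 and day 10 of SGCF (adjusted p = 0.0019), and the difference of -0.09 in 6TCF was not called (adjusted p = 0.776).

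The change of Pdgfrb to day 10 was higher in SGCF by 1.33 ± 0.25 (adjusted p = 0.00315), while the difference in the change to day 5 was 0.27 (adjusted p = 0.575), with a 95% interval from -0.27 to 0.81. SGCF was higher than 6TCF by 1.30 at day 10 (adjusted p = 2.54e-04), whereas the arms differed by -0.03 at day 0 (adjusted p = 0.92) and by 0.24 at day 5 (adjusted p = 0.351). The difference at day 10 was 0.19 without normalization between arrays and was then not called (adjusted p = 0.428). The change from day 0 to day 10 of SGCF was then -0.69 and was called (adjusted p = 0.0161). The second probe set, 1417148_at, fell by 1.11 and 1.32 in 6TCF and by 0.90 at day 5 of SGCF, and its rise of 0.40 between day 5 and day 10 of SGCF was not called. Without SGCF day 0 replicate 2 the fall of Pdgfrb at day 10 of SGCF was -0.54 and called (adjusted p = 0.0262). Of 8 tested mural cell markers, the cell class that PDGFRB marks in vessels, 3 rose and 5 fell at day 10 of 6TCF and 4 rose and 4 fell at day 10 of SGCF. Their summed intensity was 19354.8 to 19444.3, 10547.3 to 12131.0 and 7677.2 to 8428.9 over the days of 6TCF and 17445.4 to 18919.9, 7185.4 to 7192.1 and 9003.6 to 10479.2 over those of SGCF. The sum mostly follows the bright smooth muscle actin gene Acta2, with group means of 14.13, 13.10 and 12.50 over the days of 6TCF and 14.05, 11.87 and 12.91 over those of SGCF. Rgs5, Kcnj8 and Notch3 rose at both days of both arms, so the markers did not move as 1 group, and the part of such cells in the Pdgfrb change was not tested.

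Of the other PDGF genes, the 4 ligand genes tested were lower or not called in each of the 4 comparisons with day 0. Pdgfd, which encodes a ligand of PDGFRB, fell by 1.41 ± 0.21 at day 10 of SGCF. With the receptors, 1 of 6 tested genes rose and 4 fell at day 5 and at day 10 of 6TCF (median change -0.60 and -0.94). At day 5 of SGCF none rose and 4 fell (median -0.57), and at day 10 of SGCF 1 rose and 3 fell (median -0.39).

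Of the FGF receptor genes, Fgfr2 rose in 6TCF, and in SGCF it fell at day 5 and stood above day 0 at day 10. Fgfr2 encodes a receptor whose splice forms answer different FGF ligands in epithelial and mesenchymal cells, a distinction these probe sets were not tested for. Its level in 6TCF was 7.86 and 8.16 at day 0, 8.92 and 8.83 at day 5, and 8.78 and 8.88 at day 10. The corresponding SGCF levels were 8.34 and 7.95, then 7.36 and 7.40, then 8.79 and 8.72. No treated array overlapped with the day 0 arrays of its arm, and the 2 arms stood on opposite sides of day 0 at day 5. The change in 6TCF was 0.87 ± 0.15 at day 5 (adjusted p = 9.56e-04) and 0.83 ± 0.15 at day 10 (adjusted p = 8.46e-04). The change in SGCF was -0.76 ± 0.15 at day 5 (adjusted p = 0.00256) and 0.61 ± 0.15 at day 10 (adjusted p = 0.00676).

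Between day 5 and day 10 of SGCF Fgfr2 rose by 1.37, or 2.59-fold (adjusted p = 6.49e-05), and the difference of -0.04 in 6TCF was not called (adjusted p = 0.874). The change at day 5 was lower in SGCF by -1.63 ± 0.21 (adjusted p = 5.59e-04), and that at day 10 by -0.22 (adjusted p = 0.486), with a 95% interval from -0.67 to 0.24. SGCF was lower than 6TCF by -1.50 at day 5 (adjusted p = 2.87e-05), and the differences of 0.13 at day 0 and -0.08 at day 10 were not called (adjusted p = 0.565 and 0.717). Without normalization between arrays the day 10 difference was -1.14 and was called (adjusted p = 1.71e-05). The second probe set, 1420847_a_at, also gave a lower day 5 change in SGCF, by -0.97, which was called (adjusted p = 0.0442), but neither its day 5 change in 6TCF, 0.47 (adjusted p = 0.0893), nor that in SGCF, -0.51 (adjusted p = 0.0713), was called on its own. The rise at day 10 of SGCF was 0.42 without SGCF day 0 replicate 2 (adjusted p = 0.0514) and 0.27 without normalization between arrays (adjusted p = 0.357). Of 8 tested epithelial markers, 6 rose and 1 fell at day 10 of 6TCF (median 1.12). At day 10 of SGCF none rose and 2 fell (median -0.20). Their summed intensity was 1186.1 to 1253.1 at day 0, 3186.1 to 3205.5 at day 5 and 4475.7 to 4908.7 at day 10 of 6TCF, and 753.9 to 853.4, 819.3 to 900.9 and 566.0 to 749.3 in SGCF. Cdh1, Cldn7, Esrp1 and Ehf, also on that list, had means below the filter in all groups. Mesothelial markers, a list that shares Krt19 with the epithelial list, moved the same way in 6TCF. Of 6 tested, 5 rose and 1 fell at day 10 of 6TCF (median 1.46), and 2 rose and 2 fell at day 10 of SGCF (median 0.41). Fgfr2 was called higher at day 10 in both arms, and the part of epithelial or mesothelial cells in it was not tested.

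Fgfr1 encodes the main FGF receptor of mesenchymal cells. Its level in 6TCF was 10.06 and 9.95 at day 0, 10.21 and 10.11 at day 5, and 9.37 and 9.44 at day 10. In the SGCF arm the level was 10.02 and 9.36, then 9.50 and 9.57, then 10.18 and 10.03. The day 10 arrays of 6TCF were below the others of that arm, and the day 0 arrays of SGCF spanned all of its day 5 arrays. Fgfr1 fell by 0.60 ± 0.18 at day 10 of 6TCF (adjusted p = 0.0173), and by 0.76 between day 5 and day 10 (adjusted p = 0.0167). The change at day 5 of 6TCF, 0.16 (adjusted p = 0.583), and those of SGCF, -0.15 at day 5 (adjusted p = 0.587) and 0.42 at day 10 (adjusted p = 0.0859), were not called.

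The arms differed in the change of Fgfr1 to day 10 by 1.02 ± 0.25 (adjusted p = 0.014), and 1425911_a_at gave a called difference of 1.11, while the difference in the change to day 5 was -0.31 (adjusted p = 0.521). Between the arms the values were -0.32 at day 0 (adjusted p = 0.243), -0.62 at day 5 (adjusted p = 0.027) and 0.70 at day 10 (adjusted p = 0.0133), the last of which was -0.39 without normalization between arrays. The dimmer probe set gave 0.28 at day 5, not called, and a called 1.10 at day 10. The rise of 0.57 between day 5 and day 10 of SGCF (adjusted p = 0.0407) was not called with median scaling (0.46, adjusted p = 0.0726), with the mean of both probe sets (0.43, adjusted p = 0.135), without any 1 of the 4 arrays it compares (0.50 to 0.65) or without any 1 of the 6TCF arrays (0.57, adjusted p = 0.0526 to 0.0591). Leaving out an array ended most of the other Fgfr1 calls. The fall at day 10 of 6TCF lost its call without any 1 of its 4 arrays (-0.55 to -0.65, adjusted p = 0.054 to 0.093), and the fall after day 5 without 6TCF day 5 replicate 1 or either 6TCF day 10 array (-0.71 to -0.79). The difference between the arms at day 5 was lost without any 1 of its 4 arrays (-0.57 to -0.67). The difference at day 10 was lost without either 6TCF day 10 array or SGCF day 10 replicate 1 (0.63 to 0.74), and the difference in the change to day 10 without 6TCF day 0 replicate 1 (0.97, adjusted p = 0.0505) or 6TCF day 10 replicate 1 (0.98, adjusted p = 0.0515). Without SGCF day 0 replicate 1, the change at day 10 of SGCF was 0.75 (adjusted p = 0.00122) and the difference at day 0 was -0.65 (adjusted p = 0.00657). Without SGCF day 0 replicate 2, the change at day 5 of SGCF was -0.48 (adjusted p = 0.0216) and the arms' difference in it was -0.64 (adjusted p = 0.0377).

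Of 12 tested FGF receptors and cofactors, 5 rose and 1 fell at day 5 of 6TCF (median 0.18), 4 rose and 2 fell at day 10 of 6TCF (median 0.09), 4 rose and 2 fell at day 5 of SGCF (median 0.09), and 6 rose and 1 fell at day 10 of SGCF (median 0.40). Sdc1 and Sdc3 encode syndecans, heparan sulfate proteoglycans of the cell surface. Sdc1 rose by 0.97 ± 0.12 and Sdc3 fell by 2.04 ± 0.14 at day 10 of 6TCF. In SGCF, Sdc3 fell by 0.84 ± 0.14 and Fgfrl1, which encodes an FGF receptor without a kinase domain, rose by 0.94 ± 0.15. Of 18 tested FGF ligands, 4 rose and 3 fell at day 10 of 6TCF (median -0.03), where 23.2% of all genes rose and 20% fell. At day 10 of SGCF 2 of them rose and 2 fell (median -0.08), against 20.4% and 18.2% of all genes. Fgf7, which encodes keratinocyte growth factor, a ligand of the epithelial form of FGFR2, fell by 1.90 ± 0.12 at day 10 of 6TCF, and Fgf1 rose by 1.23 ± 0.21. At day 10 of SGCF, Fgf10, which encodes another ligand of that form, rose by 1.24 ± 0.12, and Fgf13, whose product stays in the cell, fell by 1.23 ± 0.11.

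Met, which encodes the HGF receptor, was dim in every group, between the 14.2 and 28.8 percentiles of its arrays. Its level was 4.85 and 4.88 at day 0, 5.40 and 5.38 at day 5, and 5.15 and 5.12 at day 10 of 6TCF. In SGCF it was 5.40 and 5.50, then 5.36 and 5.20, then 5.48 and 4.95. It passed the filter, set at 5.27, through 3 groups whose means were 5.28 to 5.45, so a difference among groups was partly built into its passing. Met rose at day 5 of 6TCF by 0.53 ± 0.15 (adjusted p = 0.0244), and was higher by 0.59 in SGCF than in 6TCF at day 0 (adjusted p = 0.0255). The other Met changes were not called: 0.27 at day 10 of 6TCF (adjusted p = 0.185), -0.17 and -0.24 at day 5 and day 10 of SGCF (adjusted p = 0.467 and 0.255), and -0.70 and -0.51 for SGCF minus 6TCF in the day 5 and day 10 change (adjusted p = 0.0754 and 0.11). The rise at day 5 of 6TCF lost its call without any 1 of its 4 arrays (0.50 to 0.53, adjusted p = 0.0796 to 0.119) and with a pseudocount of 64 (0.22, adjusted p = 0.0988). The difference at day 0 lost its call without either 6TCF day 0 array (0.56 and 0.59, adjusted p = 0.126 and 0.126) or SGCF day 0 replicate 2 (0.55, adjusted p = 0.105). Without SGCF day 10 replicate 1, Met was called lower at day 10 of SGCF (-0.51, adjusted p = 0.0229), as were the differences in the day 5 change (-0.71, adjusted p = 0.0231) and the day 10 change (-0.79, adjusted p = 0.018), the former also without SGCF day 10 replicate 2 (-0.71, adjusted p = 0.0239).

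Other genes of the HGF and MET axis include the ligand, its activating proteases and their inhibitors, and co-receptors. Hgf, which encodes its ligand, rose by 1.03 ± 0.21 at day 10 of SGCF. At day 10 of 6TCF, Spint2, which encodes an inhibitor of the proteases that activate HGF, rose by 1.61 ± 0.15, and Nrp1, which encodes the co-receptor neuropilin 1, fell by 1.77 ± 0.21. Cd44, which encodes a hyaluronan receptor that can act with MET, fell by 0.91 ± 0.16 at day 10 of SGCF. Of 8 tested genes of this axis, 4 rose and 2 fell at day 5 and at day 10 of 6TCF (median 0.46 and 0.40), 1 rose and 2 fell at day 5 of SGCF (median -0.25), and 3 rose and 1 fell at day 10 of SGCF (median 0.06).

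**Figure D3:**
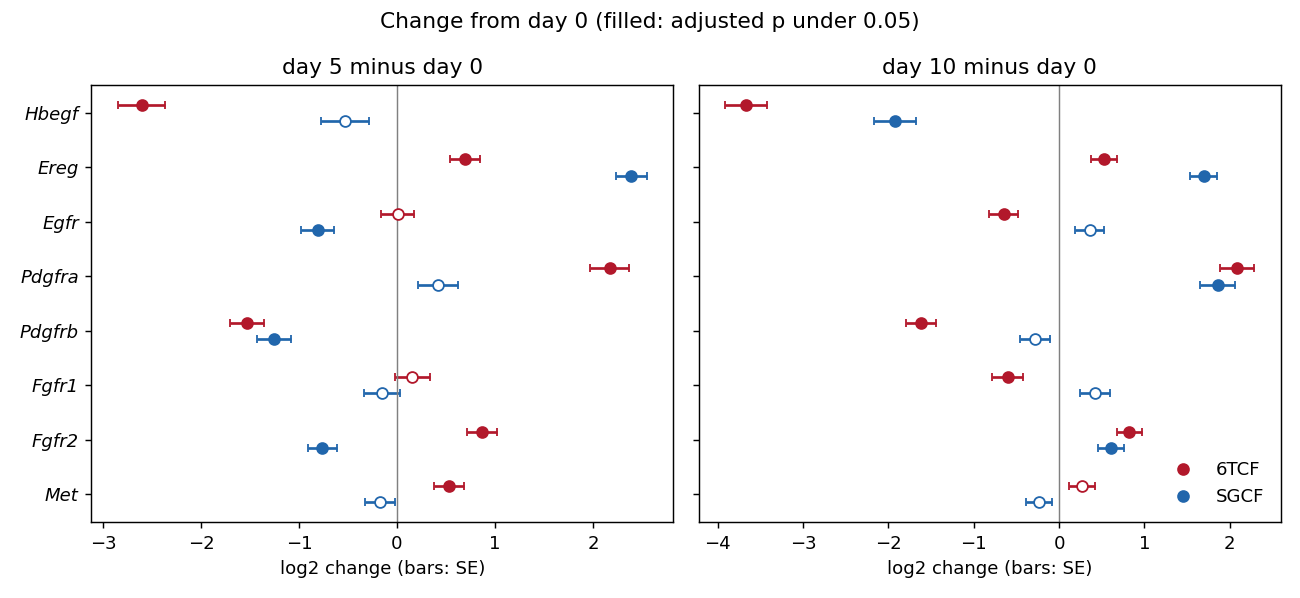
Change from day 0 of the 8 genes in log2 units, with its SE, at day 5 (left) and day 10 (right), for 6TCF (red) and SGCF (blue). Filled symbols have an adjusted p under 0.05. Hbegf is below 0 and Ereg above 0 in both arms, Fgfr2 lies on opposite sides of 0 at day 5, and Pdgfra lies near 2 in both arms at day 10.

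The 8 genes were then counted together against the share of all 10674 genes called in the same direction. They were chosen with earlier results of these data known, so the counts and medians describe them and do not test them as a set. At day 5 of 6TCF, 4 rose, Ereg, Pdgfra, Fgfr2 and Met, against 15.1% of all genes, and 2 fell, Hbegf and Pdgfrb, against 12.5%. Met is 1 of the 4 but passed the filter through groups where it is higher, so its call is not to be read against that share, which leaves 3 of the other 7. At day 10 of 6TCF, 3 rose, Ereg, Pdgfra and Fgfr2 (23.2% of all genes), and 4 fell, Hbegf, Egfr, Pdgfrb and Fgfr1 (20% of all genes). The arrays of day 0 did not overlap with those of day 5 for 7 of the 8 (65.9% of all genes), or with those of day 10 for all 8 (78.2% of all genes), so these counts say little about the members. Between day 5 and day 10 of 6TCF none rose (8.6% of all genes) and 3 fell, Hbegf, Egfr and Fgfr1 (7.01%). The later fall rests on few arrays: without 6TCF day 5 replicate 1, 6TCF day 10 replicate 1 or 6TCF day 10 replicate 2, none of the 3 was called, and without 6TCF day 0 replicate 1 the count at day 10 against day 0 was 4 in place of 7.

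At day 5 of SGCF, 1 gene rose, Ereg (12.8% of all genes), and 3 fell, Egfr, Pdgfrb and Fgfr2 (12.6%). At day 10 of SGCF, 3 rose, Ereg, Pdgfra and Fgfr2 (20.4%), and 1 fell, Hbegf (18.2%). The arrays of day 0 did not overlap with those of day 5 for 6 of the 8 genes (55.9% of all genes), or with those of day 10 for 6 (64.5% of all genes). Between day 5 and day 10 of SGCF, 5 of the 6 receptor genes rose, Egfr, Pdgfra, Pdgfrb, Fgfr1 and Fgfr2 (11.7% of all genes), and both ligand genes fell (9.9%). Of these 5, the Fgfr1 call was lost under the alternatives given above and the Egfr call came from 1 of 5 probe sets. The median change of the 8 over that interval was 0.77, against -0.00 over all genes tested. The 3 genes called higher at day 10 were Ereg, Pdgfra and Fgfr2 in each arm, and Hbegf was the gene called lower in both. Of these, the calls of Ereg in 6TCF and Fgfr2 in SGCF were lost without normalization between arrays (0.46 and 0.27). As given above, they were also lost when certain single arrays were left out. The 6TCF and SGCF comparisons use separate day 0 arrays.

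The change from day 0 was also compared directly between the arms. At day 5, 2 genes changed more positively in SGCF, Hbegf and Ereg (2.83% of all genes), and 2 more negatively, Pdgfra and Fgfr2 (5.99%). At day 10, 5 changed more positively in SGCF, Hbegf, Ereg, Egfr, Pdgfrb and Fgfr1 (12.1%), and none more negatively (13.3%). The median difference was -0.50 at day 5 and 1.02 at day 10, against 0.01 at both over all genes. The 3 genes without a called difference at day 10 were Pdgfra, Fgfr2 and Met.

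**Figure D4:**
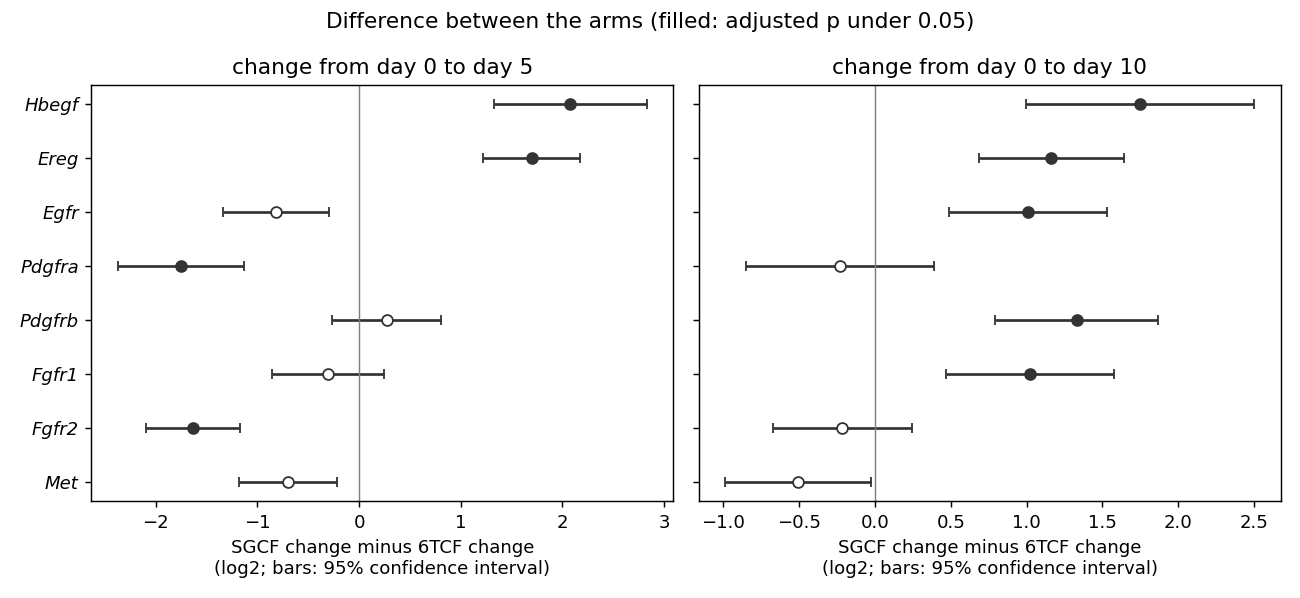
Change from day 0 in SGCF minus that in 6TCF, in log2 units, with its 95% confidence interval, for the 8 genes at day 5 and day 10. Filled symbols have an adjusted p under 0.05. Hbegf and Ereg lie above 0 on both days, Pdgfra and Fgfr2 lie below 0 at day 5 and have intervals that include 0 at day 10.

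Between the arms at a single day, 1 gene was higher in SGCF at day 0, Met (8.46% of all genes), and 3 were lower, Hbegf, Ereg and Egfr (8.68%). The Met call, with 6TCF day 0 below the filter, is not to be read against that share. At day 5, 2 were higher, Hbegf and Ereg (10.8%), and 4 lower, Egfr, Pdgfra, Fgfr1 and Fgfr2 (12.7%). At day 10, 2 were higher, Pdgfrb and Fgfr1 (13.3%), and none lower (14%). The arrays of the arms did not overlap for 4 of the 8 genes at day 0 (59.1% of all genes), 7 at day 5 (62.2%) and 6 at day 10 (70.5%). The day 0 count was 0 without 6TCF day 0 replicate 2 and 2 without 6TCF day 0 replicate 1, and the day 10 count was 1 without either 6TCF day 10 array or SGCF day 10 replicate 1. Without normalization between arrays the median of all genes was lower in SGCF by 0.61 to 0.86, and the directions of 6 of these single-day differences were turned.

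The ERK cascade switches on a set of early transcription factor and feedback inhibitor genes downstream of the receptors. Of 15 tested ERK target and feedback genes, 4 rose and 3 fell at day 5 of 6TCF (median change 0.33), and 10 rose and 2 fell at day 5 of SGCF (median 0.97). At day 10, 3 rose and 4 fell in 6TCF (median -0.23), and 6 rose and 4 fell in SGCF (median 0.17). The median over all genes was between -0.01 and 0.03 in these comparisons. Of all genes, 15.1% rose and 12.5% fell at day 5 of 6TCF, and 12.8% and 12.6% at day 5 of SGCF. At day 10 these shares were 23.2% and 20% in 6TCF and 20.4% and 18.2% in SGCF. In the direct test of the difference at day 5, 6 of the 15 changed more positively in SGCF (2.83% of all genes) and 1 more negatively (5.99%). The day 0 arrays enter that difference. At day 0, 0 of the 15 were higher in SGCF than in 6TCF (8.46% of all genes) and 6 were lower (8.68%), with a median of -0.44. Between the arms at day 5, 3 were higher in SGCF (10.8%) and 1 lower (12.7%), with a median of 0.16. Spred1, which encodes an inhibitor of RAF activation, had the largest rise at day 10 of 6TCF, 0.76 ± 0.12, and Egr1, an immediate early transcription factor gene, the largest fall, -3.10 ± 0.23. In SGCF, Phlda1 rose by 1.30 ± 0.15 and the transcription factor gene Myc fell by 1.35 ± 0.14.

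Proteases that can cut EGF ligands from the membrane were listed with the iRhoms, the factors that carry some of them to the cell surface. Of 8 tested, 2 rose and 3 fell at day 5 of 6TCF, none rose and 3 fell at day 10 of 6TCF, none rose and 4 fell at day 5 of SGCF, and 1 rose and 3 fell at day 10 of SGCF (medians 0.04, -0.00, -0.32 and -0.16). Adam17, which encodes the main sheddase for HBEGF and epiregulin, rose by 0.76 ± 0.12 at day 10 of SGCF. Adam12 fell by 1.33 ± 0.17 at that time and Adam19 fell by 1.67 ± 0.17 at day 10 of 6TCF.

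Of 12 tested genes that restrain EGF receptor signalling, 2 rose and 3 fell at day 5 of 6TCF, 2 rose and 5 fell at day 10 of 6TCF, 3 rose and 1 fell at day 5 of SGCF, and 3 rose and 3 fell at day 10 of SGCF (medians -0.09, -0.11, 0.04 and 0.01). Socs3, which encodes a suppressor of cytokine signalling, rose by 2.52 ± 0.16 at day 10 of 6TCF and 1.89 ± 0.16 at day 10 of SGCF. Cbl, which encodes a ubiquitin ligase that sends EGFR to lysosomes, fell by 1.33 ± 0.23 at day 10 of 6TCF, and Socs4 fell by 1.09 ± 0.14 at day 10 of SGCF. Of 18 adaptor and ERK cascade genes tested, 2 rose and 8 fell at day 10 of 6TCF (median -0.30) and 4 rose and 1 fell at day 10 of SGCF (median 0.18). The shares of all genes that rose and fell were 23.2% and 20% at day 10 of 6TCF and 20.4% and 18.2% at day 10 of SGCF. The docking protein gene Gab1 rose by 0.98 ± 0.16 and the RAS GTPase activating gene Rasa1 fell by 0.96 ± 0.15 at day 10 of 6TCF. In SGCF the scaffold gene Ksr1 rose by 1.41 ± 0.17 and the kinase gene Braf fell by 0.45 ± 0.12.

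Among 32 other receptor tyrosine kinase genes tested, 6 rose and 10 fell at day 10 of 6TCF (median -0.11), and 6 rose and 6 fell at day 10 of SGCF (median -0.00). At day 5, 7 rose and 7 fell in 6TCF (median -0.03), and 4 rose and 10 fell in SGCF (median -0.06), where 12.8% of all genes rose and 12.6% fell. Between day 5 and day 10 of SGCF 11 of the 32 rose and none fell (median 0.07), where 11.7% of all genes rose and 9.9% fell. Ntrk2, which encodes the neurotrophin receptor TRKB, had the largest rise in each arm, 1.86 ± 0.18 in 6TCF and 3.06 ± 0.18 in SGCF at day 10. Axl, which encodes a receptor for GAS6, fell by 2.07 ± 0.18 in 6TCF. Csf1r, the CSF1 receptor gene and a macrophage marker, fell by 2.77 ± 0.13 in SGCF, where 16 of 17 tested macrophage markers fell and 1, Cd14, rose.

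The genes whose 6 group means ran closest to each member were found by the root mean square difference of centred log2 levels over the 6 groups. For Hbegf they were Klhdc8a at 0.369 and Slc6a15 at 0.443, against a range of 3.67 over the groups for Hbegf itself. For Ereg they were Acsl6 at 0.204 and Grem1, which encodes a BMP antagonist, at 0.226. For Egfr they were Parm1 at 0.171 and Nrp2 at 0.184, and for Pdgfra Sesn3 at 0.196 and Abca1, a cholesterol exporter gene, at 0.205. The nearest to Pdgfrb were the collagen gene Col5a1 at 0.154 and Aoc3 at 0.168. The nearest to Fgfr2 were the insulin-like growth factor gene Igf2 at 0.170 and Kat2b at 0.175. Those of Fgfr1, Arid2 at 0.0688 and Zmynd8 at 0.094, and of Met, Fbxw5 at 0.0732 and Rsad2 at 0.0774, are small because those members had ranges of 0.76 and 0.59. Among the members themselves, Pdgfra and Fgfr2 lay at 0.606 from each other, Pdgfra and Pdgfrb at 1.44, Hbegf and Ereg at 1.69, and Hbegf and Pdgfra, the most distant pair, at 2.12.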

How the data were processed

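Per the labels' protocols, total RNA was biotin labelled and hybridised to 12 arrays of the Affymetrix 430A 2.0 mouse design. The values are linear intensities of 22690 probe sets as deposited by the authors, and RMA, MAS5 and limma are named in the submitters' processing notes with no role or version. The deposited intensity values were not on a common scale between arrays. They were quantile normalized, a step fixed beforehand whatever their scale, then a pseudocount of 16 was added and log2 taken. GEO's platform annotation gave 1 gene symbol to 20380 probe sets, several to 691 and none to 1555 (64 are controls), and 20351 matched a RefSeq gene by Entrez ID, with 0 symbols changed. The probe set with the highest mean over the arrays stood for its gene (12393 genes), and genes whose highest group mean was above the 25th percentile, log2 5.27, were kept (10674 genes). Group means of all 12 arrays were fitted with limma 3.58.1 in R 4.3.3 (lmFit, contrasts.fit, eBayes, 6 residual and 5.53 prior degrees of freedom), with Benjamini-Hochberg adjustment over all genes kept, separately in each of 11 comparisons, and an adjusted p under 0.05 was called. An exact permutation test of 2 arrays against 2 cannot go below p = 0.333, so single genes were tested by the fit alone. On simulated data for the first comparison, 88 of 100 genes changed by 1 log2 unit and 99 of 100 changed by 2 were recovered, with 5 false calls among 10674 genes. The number of arrays limits the precision.

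The members and the gene lists were chosen with earlier results of these data known. Named genes are the members, the EGF family ligands and ERBB receptors, the largest called rise and fall at day 10 of each other list in each arm, and the 2 genes nearest to each member. The marker genes Col1a2, Vim, Lum, Fbln2, C1qa, Ptprc, Cd14, Lyz2, Cd68, Acta2, Rgs5, Kcnj8 and Notch3 were picked from their lists after their values were seen. Alternatives tried were the normalization, pseudocount, filter, choice of probe set, samples fitted, replicate block, moderation of the spread and leaving out each array.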

Additional observations from a re-analysis of the deposited data

Results flagged for a closer look

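The change from day 0 differed between SGCF and 6TCF, by the direct test of that difference in limma, for 7 of the 8 genes on at least 1 day. Of all genes, 2.83% were called with a more positive and 5.99% with a more negative change in SGCF at day 5. At day 10 these shares were 12.1% and 13.3%. The SGCF change minus the 6TCF change was 2.08 at day 5 and 1.75 at day 10 for Hbegf, and 1.70 at day 5 and 1.16 at day 10 for Ereg. It was -1.75 for Pdgfra and -1.63 for Fgfr2 at day 5. It was 1.01 for Egfr, 1.33 for Pdgfrb and 1.02 for Fgfr1 at day 10. The Egfr value comes from 1 of 5 probe sets, and the other 4 gave no called difference. Without normalization between arrays, neither the Egfr value (0.80, adjusted p = 0.0739) nor the Fgfr1 value (0.74, adjusted p = 0.0771) was called. The Fgfr1 call was also lost without 6TCF day 0 replicate 1 (0.97) or 6TCF day 10 replicate 1 (0.98).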

How the results depend on the processing

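Leaving out each array changed no direction of a called difference and left a group with 1 array that is assumed to vary like the others. The count of the 8 genes called then ranged from 4 to 6 at day 5 (6 with all arrays) and 4 to 7 at day 10 (7) of 6TCF and 0 to 3 (3) between these days. In SGCF it ranged from 4 to 5 (4), 4 to 6 (4) and 5 to 7 (7) for the same comparisons. For SGCF minus 6TCF in the change it was 4 to 6 (4) at day 5 and 4 to 6 (5) at day 10. Between the arms on a single day it was 0 to 5 (4) at day 0, 4 to 6 (6) at day 5 and 1 to 3 (2) at day 10.

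Without normalization between arrays, 1 gene was called between day 5 and day 10 of 6TCF, 3 for the difference in the change to day 10, and 4 between the arms at day 10. The sign then turned for Fgfr2 at day 0 (-0.63), Pdgfrb at day 5 (-0.66), and Ereg (-0.75), Egfr (-0.80), Pdgfra (-0.84) and Fgfr1 (-0.39) at day 10, all between the arms. Calls also lost then were those of Egfr (-0.49) and Fgfr1 (-0.54) between day 5 and day 10 of 6TCF, of Egfr (0.80) and Fgfr1 (0.74) for the difference in the change to day 10, of Met at day 5 of 6TCF (0.52) and between the arms at day 0 (0.30), and of Fgfr1 between day 5 and day 10 of SGCF (0.57). The median over all genes moved to -0.61, -0.71 and -0.86 in those comparisons, and 7027, 7907 and 8664 genes were called, 65, 34 and 37 of them higher, against 1830, 2509 and 2912 with 903, 1156 and 1416 higher. Within the arms it moved to -0.21 at day 5 and 0.17 between day 5 and day 10 of 6TCF, to -0.27 and -0.23 at day 5 and day 10 of SGCF, and to -0.22 for the difference in the change to day 10. Genes called higher were then 855 of 2870 at day 5 of 6TCF (1614 of 2945 with normalization), 1189 of 1397 between day 5 and day 10 (918 of 1666), 456 of 2832 at day 5 of SGCF (1365 of 2711), 766 of 3449 at day 10 (2181 of 4120), 745 of 1212 between these days (1245 of 2302), 119 of 648 for the day 5 difference (302 of 941) and 343 of 1945 for the day 10 difference (1294 of 2711). With median scaling they were 1563 of 2744 between the arms at day 5 and 987 of 2448 between day 5 and day 10 of SGCF. With an arm fitted alone, 2573 genes were called between day 5 and day 10 of 6TCF and 1463 in SGCF.

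With all day 0 arrays as 1 group, Hbegf at day 5 of SGCF (-1.10, adjusted p = 0.045) and Pdgfra (0.65, adjusted p = 0.0451) were called, and Egfr (-0.23) and Fgfr1 (-0.44) at day 10 and Met (0.23) at day 5 of 6TCF were not. The replicate block left every call of the 8 genes as it was, for example 6 called at day 5 and 7 at day 10 of 6TCF. For arrays of an arm that share a replicate number, deviations from group means correlated between -0.273 (SGCF day 0 with day 5) and 0.109 (SGCF day 0 with day 10). The labels do not give the embryo or culture behind each array, so these correlations cannot tell whether the numbers pair the arrays. Dim probe sets limit what can be read of Met and of the lesser Egfr probe sets.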
